A study of Homo sapiens with 10 samples.

Results

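The SR splicing factors described here are 10 genes, SRSF1 to SRSF7, SRSF10, SRSF11 and TRA2A, taken by symbol from the 78894 gene IDs of a table of RNA-seq values. The rule that chose them names symbols and no measured value, though the choice was made with earlier results of these data known. All 10 passed the filter on low values, which left 29045 genes for testing. The RNA came from HEK293T, an established line of human embryonic kidney origin, kept for 24 h with different amounts of L-cysteine in the medium, and the labels name no edit or other agent. The groups were cysteine-free medium (0X-Cys, 2 libraries), complete medium (1X-Cys, 4 libraries) and medium with 10 times the cysteine of complete medium (10X-Cys, 4 libraries). The labels call the libraries biological replicates without saying whether each was a separate culture, so p-values measure the spread between these libraries. The replicate number in the study's own legend differs from the library numbers of the labels, and all labelled libraries were used.

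SR proteins bind exonic enhancers in pre-mRNA through RNA recognition motifs and recruit the spliceosome through a tail rich in arginine-serine repeats, the RS domain, which SRPK and CLK kinases phosphorylate. Most SR genes limit their own expression: when the protein is abundant, a poison exon or a retained intron enters the transcript, which is then decayed or held in the nucleus. The values here are for whole genes, so productive and unproductive transcripts are counted together.

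The tails that name the family are shown first because they set these genes apart from others by sequence. Below is the run of 20 codons, within 1 exon, with the most RS or SR dipeptides in the GENCODE 44 canonical transcript of SRSF1, SRSF3, SRSF4 and SRSF11, 5′ to 3′ on the coding strand, with arginine codons in capitals. They lie in coding exons on GRCh38, at chr17:58005484-58005543 (minus strand, exon 4 of 4), chr6:36601733-36601792 (plus, exon 5 of 6), chr1:29148851-29148910 (minus, exon 6 of 6) and chr1:70244685-70244744 (plus, exon 8 of 12).
SRSF1: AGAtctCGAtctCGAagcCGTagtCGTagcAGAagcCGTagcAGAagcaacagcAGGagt
SRSF3: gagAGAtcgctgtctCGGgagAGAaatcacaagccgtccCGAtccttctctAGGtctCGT
SRSF4: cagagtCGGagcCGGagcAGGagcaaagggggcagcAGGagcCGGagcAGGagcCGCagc
SRSF11: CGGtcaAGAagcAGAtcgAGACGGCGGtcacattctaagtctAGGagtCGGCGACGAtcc

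The SRSF1 run encodes 17 such dipeptides, against 14 for SRSF4, 11 for SRSF11 and 7 for SRSF3. Over whole proteins the members held a median of 17.6 RS or SR dipeptides per 100 residues, and the 15311 proteins of tested genes a median of 0.769. SRSF2 had the highest density at 23.5 and SRSF11 the lowest at 8.26. SRSF4 had 22.9, SRSF3 15.2 and SRSF1 12.5, an order unlike that of the runs, which were confined to 1 exon. The members were also poor in the amino acid that was varied: cysteine made up a median of 0.497% of their residues, against 1.91% over the proteins of tested genes. SRSF2 encodes no cysteine, SRSF10 and TRA2A encode 1 each, and SRSF3 and SRSF7 encode 4 each, those of SRSF7 including the residues of its zinc knuckle. SRSF3, at 2.44% cysteine, was the member above that median.

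All values are normalized counts, that is reads per gene divided by a size factor for the library. The 10 libraries held between 34836014 and 61654861 reads on genes, and each member had at least 3590 reads in every library. These totals exceed the average read number per sample that the study's methods state, and the reason was not tested. HEK293 markers were present throughout, with 5 of 5 at 10 or more in every library, while 6 liver markers summed to at most 37.1 and 5 T cell markers to at most 13.7 in any library. Mitochondrial genes took 5.15 to 5.71% in 0X-Cys, 4.51 to 5.05% in 1X-Cys and 0.117 to 0.146% of reads in 10X-Cys, a difference that moves with the 10X-Cys results below. Its part in them was not tested, beyond a scaling on nuclear genes alone. Fewer cells with a transcript and less of it per cell cannot be told apart in bulk RNA.

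Per kilobase of annotated exon, the mean normalized count in complete medium was highest for SRSF2 (5397 ± 384, SD, n = 4) and SRSF1 (4268 ± 114), the best known enhancer-binding members. SRSF7 (2842 ± 60.5) and SRSF6 (2699 ± 123) came next, with overlapping ranges, followed by SRSF3 (2159 ± 153), SRSF11 (1938 ± 28.9) and SRSF5 (1872 ± 19.5). TRA2A (1302 ± 77.8) and SRSF4 (1241 ± 26.5) overlapped, and SRSF10 (824 ± 41.5) was lowest. All other neighbours in this order had ranges that did not overlap.

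The order kept SRSF2 at the head in 0X-Cys, at 4874 ± 138 per kilobase (n = 2), and SRSF10 at the foot, at 878 ± 41.1. In 10X-Cys SRSF1 led at 3058 ± 61.2, and SRSF2, at 2754 ± 131, came second and overlapped SRSF6 at 2653 ± 65.3. SRSF3, at 1549 ± 28.8, ranked below SRSF11, at 1967 ± 54.6, in 10X-Cys. Annotated exon bases pool all transcripts of a gene, so these levels are lower for genes with long rarely used exons.

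**Figure D1:**
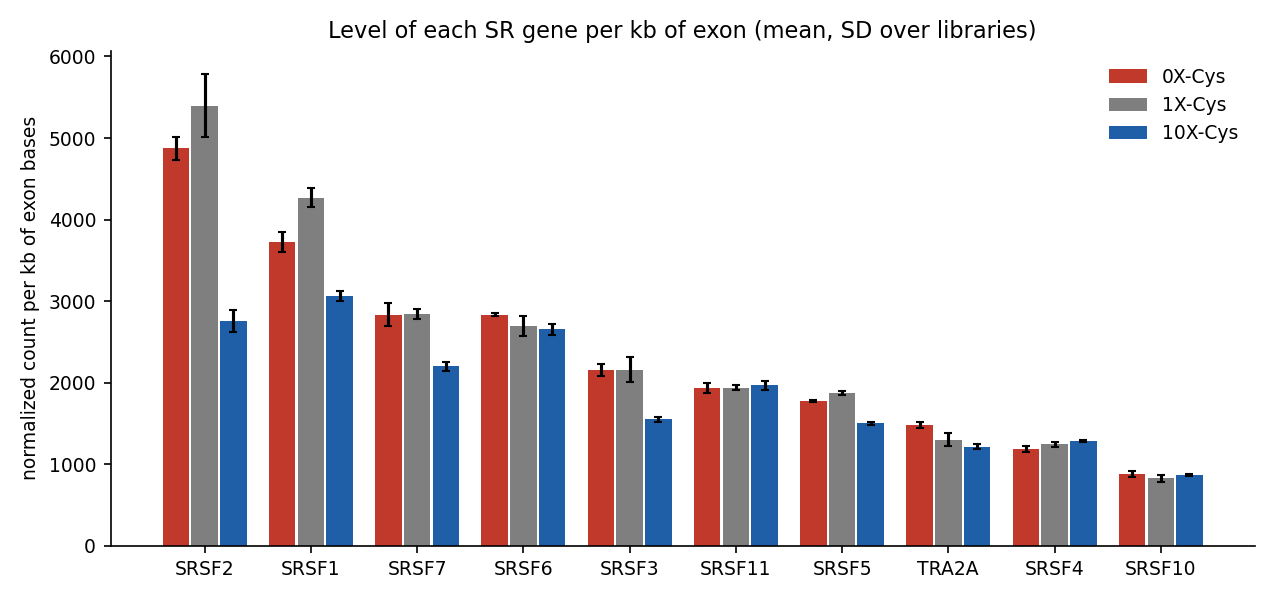
Mean normalized count per kilobase of exon for each SR gene in 0X-Cys (n = 2), 1X-Cys (n = 4) and 10X-Cys (n = 4), with whiskers for SD over libraries and genes ordered by level in 1X-Cys. SRSF2 falls from the tallest bar in 1X-Cys to below SRSF1 in 10X-Cys, while the bars of SRSF10 stay between 824 and 878.

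The first comparison asks which SR genes differ between excess-cysteine and complete medium. In 10X-Cys, SRSF1, SRSF2, SRSF3, SRSF5 and SRSF7 fell at an adjusted p of 0.01 or less (limma with Benjamini-Hochberg adjustment over the 29045 genes). The falls ranged from SRSF5, at 80.2% of its 1X-Cys level, to SRSF2, at 51.0%. SRSF4, SRSF6, SRSF10, SRSF11 and TRA2A were not called. This was a broad response: 46% of all genes tested were called in this comparison and 22.9% were called lower. Among genes as abundant as the members, with a mean of 4000 or more, 74.6% were called and 43% were called lower, so 5 of 10 called lower is near that background. The members had a median log2 difference of -0.21, against 0.01 over all genes and -0.07 over the 2313 abundant genes.

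SRSF2, the SC35 protein of nuclear speckles, showed the widest gap. Its normalized counts were 16669, 15204, 17366 and 15005 in the 1X-Cys libraries and 8477, 7754, 8569 and 7984 in the 10X-Cys libraries. Each 10X-Cys library lay far below each 1X-Cys library, and the log2 difference was -0.97 ± 0.049 (SE; limma adjusted p = 4.49e-11). SRSF2 made up 12.1% of the summed counts of the 10 genes in 1X-Cys and 7.50% in 10X-Cys.

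SRSF1, the founding SR protein ASF/SF2, which shuttles between nucleus and cytoplasm, had counts of 25465, 24400, 24895 and 23929 in 1X-Cys and 17909, 18044, 17330 and 17420 in 10X-Cys. The 10X-Cys values were tightly grouped and below all 1X-Cys values, with a log2 difference of -0.48 ± 0.033 (limma adjusted p = 1.98e-09). SRSF3, the smallest member and an adaptor for the export factor NXF1, had counts of 16120, 14749, 16445 and 14166 in 1X-Cys and 10751, 11104, 11235 and 11006 in 10X-Cys. Its complete-medium libraries were more spread, yet the groups did not overlap, and the log2 difference was -0.48 ± 0.045 (limma adjusted p = 9.23e-08).

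SRSF7, also an NXF1 adaptor and the member with a zinc knuckle, had counts of 11854, 11440, 11306 and 11386 in 1X-Cys and 8782, 8710, 9169 and 8898 in 10X-Cys. All 10X-Cys values were lower, by a log2 difference of -0.37 ± 0.035 (limma adjusted p = 9.05e-08). SRSF5, an SR protein with a pair of RNA recognition motifs, had counts of 9908, 10024, 10163 and 10017 in 1X-Cys and 8153, 8048, 8042 and 7927 in 10X-Cys. Both groups were tight and apart, with a log2 difference of -0.32 ± 0.033 (limma adjusted p = 3.41e-07). For each of these 5 genes the exact permutation test over libraries gave p = 0.0286, 2-sided, the smallest that 4 against 4 libraries allow. SRSF4, which was not called, had the same permutation p.

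The other 5 genes were nearly level between the media. SRSF4, the member with the longest RS tail, had counts of 11202, 10678, 11022 and 10800 in 1X-Cys and 11232, 11239, 11495 and 11350 in 10X-Cys. Its 10X-Cys values were all a little higher, but the log2 difference of 0.05 had an interval from -0.02 to 0.12 and was not called. SRSF6, close to SRSF4 in sequence, had counts of 13435, 13333, 13728 and 12338 against 13291, 13086, 13021 and 12536, which overlapped, and an interval from -0.11 to 0.06. SRSF10, a splicing repressor when dephosphorylated, had counts of 9941, 9542, 10372 and 9239 against 10309, 10143, 10376 and 10172. The groups overlapped, with an interval from -0.01 to 0.15.

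SRSF11, a spliceosome-associated member with a single RNA recognition motif, had counts of 16320, 16624, 16613 and 16117 in 1X-Cys and 17211, 16836, 16134 and 16482 in 10X-Cys. The ranges overlapped and the interval ran from -0.05 to 0.09. TRA2A, a Transformer-2 homologue that binds GAA-rich enhancers, had counts of 4767, 4435, 4848 and 4269 against 4266, 4406, 4132 and 4248. These overlapped too, with an interval from -0.20 to -0.004 and an adjusted p of 0.0705 from limma. Ranges were apart for 6 members, the called 5 and SRSF4, against 51.6% of all genes.

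**Figure D2:**
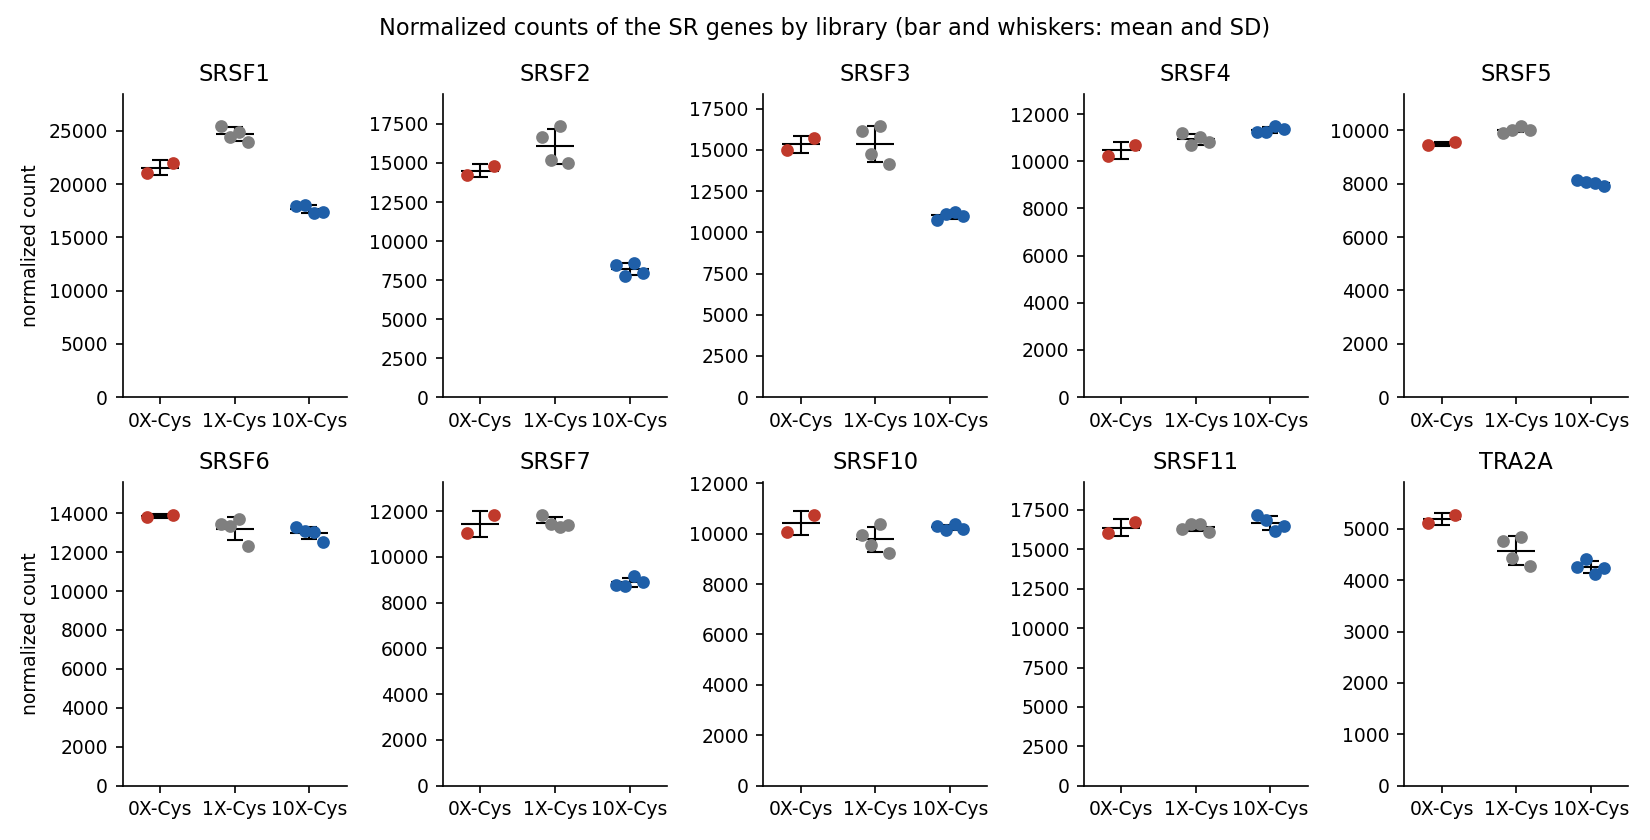
Normalized counts of the 10 SR genes on axes that start at 0, with 1 point per library in 0X-Cys (red), 1X-Cys (grey) and 10X-Cys (blue) and a bar with whiskers for mean and SD. The 4 blue points lie below all grey points for SRSF1, SRSF2, SRSF3, SRSF5 and SRSF7 and beside them for SRSF6, SRSF10 and SRSF11.

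The summed normalized count of the 10 genes was 132534 ± 4469 (SD, n = 4) in 1X-Cys and 109318 ± 974 (n = 4) in 10X-Cys, or 82.5% of the complete-medium level. Scaled to the total over all genes (CPM), the sums were 3059 ± 70.9 and 2715 ± 57.5, a smaller difference. Scaling also mattered for the uncalled genes. When libraries were scaled to equal totals, the median of all genes moved to 0.12 and the share of called genes that were higher went from 50.3% to 61.8%. Under that scaling SRSF4, SRSF10 and SRSF11 were called higher, at log2 differences of 0.16, 0.18 and 0.13. Quantile normalization also called these 3 higher, at 0.14, 0.15 and 0.11, with the median of all genes at -0.01. The 5 falls kept their direction and their call under all 21 alternatives, with log2 differences no nearer to 0 than -0.86 for SRSF2, -0.37 for SRSF1 and SRSF3, -0.27 for SRSF7 and -0.21 for SRSF5.

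Some reads of the members overlap other genes. SRSF1 shares 1890 exon bases, 32.7% of its own, with the protein-coding gene ENSG00000266086 on the same strand, whose mean count was 17899 in 1X-Cys and 12978 in 10X-Cys. SRSF2 shares 823 bases, 27.7%, with MFSD11 on the opposite strand (8068 and 5088), and holds within its exons the whole of MIR636 (604 and 285). Reads over several genes were stated to be discarded, yet genes wholly inside a member carry counts, so how shared reads were assigned is uncertain for SRSF1 and SRSF2. SRSF6 shares 654 bases, 13.4%, with ENSG00000288000, and SRSF4 shares 169 bases with a small RNA gene. SRSF3, SRSF5, SRSF7, SRSF10, SRSF11 and TRA2A share none, and SRSF3, SRSF5 and SRSF7 are among those that fell.

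The second comparison asks which SR genes differ between cysteine-free and complete medium. SRSF1 was the single member called, and it fell to 87.3% of its 1X-Cys level. Over all genes 15.9% were called and 8.51% called lower, and 34.2% were called among abundant genes, and 1 of 10 is near the share over all genes. The members' median log2 difference was -0.005, against 0.002 over all genes and -0.07 over abundant genes. SRSF1 counts were 21048 and 22033 in 0X-Cys, both below the lowest 1X-Cys library at 23929. The log2 difference was -0.20 ± 0.046 (limma adjusted p = 0.00611), and the exact permutation p was 0.0667, the smallest that 2 against 4 libraries allow. SRSF5, which was not called, had the same permutation p as SRSF1. The SRSF1 call was lost under 6 of 19 alternatives, among them the fits without either 0X-Cys library. It was also lost without 1X-Cys replicate 1 or 2 and with a block for replicate number.

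The remaining 9 members were not called in 0X-Cys, and their intervals limit how large a difference may have been missed. TRA2A counts were 5117 and 5281, above all 1X-Cys values, with a log2 difference of 0.18, an interval from 0.05 to 0.32 and a limma adjusted p of 0.0398. SRSF2 counts were 14216 and 14797, below all 1X-Cys values, with a difference of -0.14, an interval from -0.28 to -0.01 and an adjusted p of 0.0951 from limma. These 2 genes lay apart from complete medium without passing the threshold.

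SRSF3 (14979 and 15691), SRSF7 (11053 and 11851) and SRSF11 (16021 and 16750) overlapped the 1X-Cys range, with intervals no wider than -0.13 to 0.13. SRSF4 (10208 and 10708) and SRSF10 (10069 and 10758) overlapped complete medium as well, with intervals from -0.17 to 0.04 and from -0.03 to 0.21. SRSF5 (9437 and 9556) was below and SRSF6 (13794 and 13932) above all complete-medium libraries, with intervals from -0.18 to 0.02 and from -0.04 to 0.18. Ranges were apart for 5 members, against 46.9% of all genes. The summed count of the 10 genes in 0X-Cys was 128650 ± 3828 (n = 2).

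**Figure D3:**
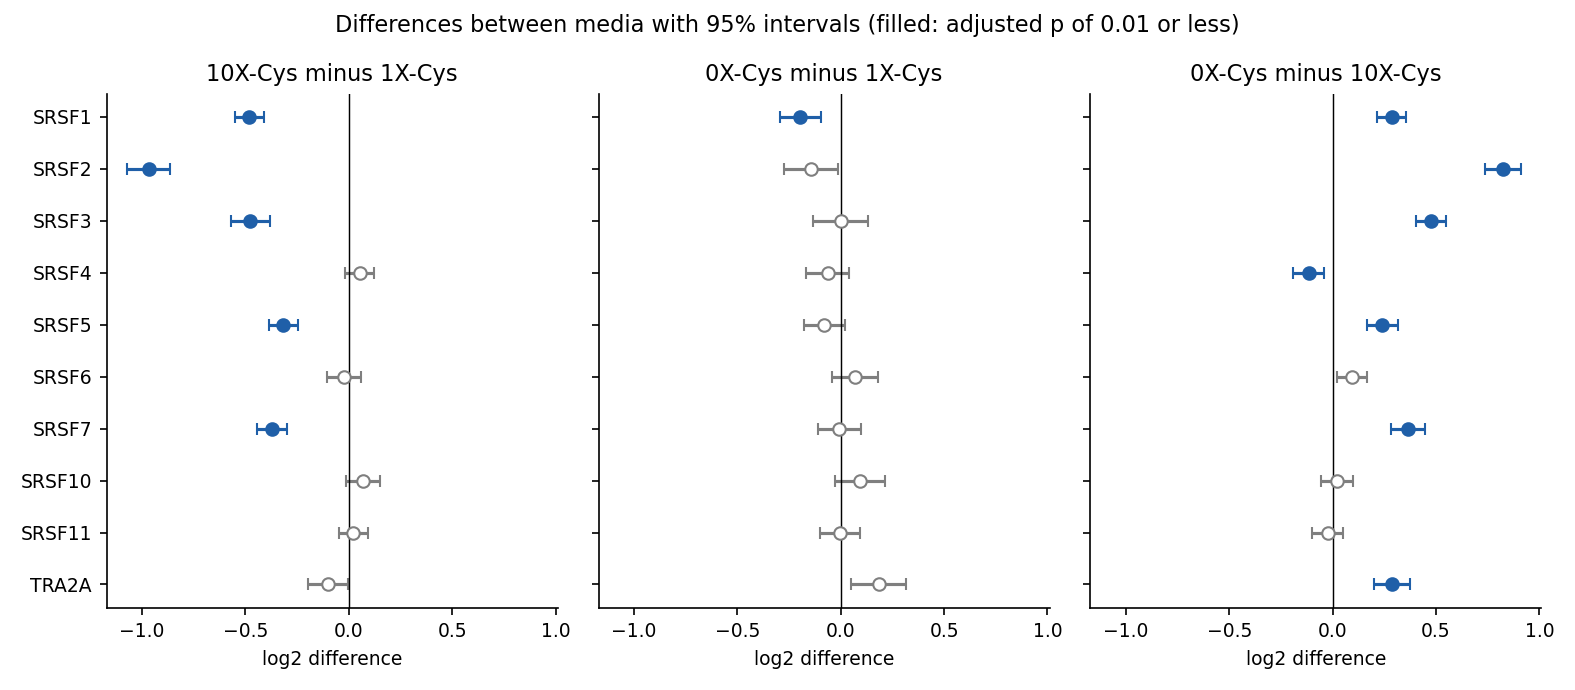
Log2 differences of the 10 SR genes in the 3 comparisons, with 95% intervals from limma and filled points for adjusted p of 0.01 or less. On the left 5 filled points lie below 0, in the middle 1, and on the right 6 lie above 0 with SRSF4 below it.

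Both comparisons use the same 1X-Cys libraries, so the test of whether the media at either end differ is the direct one, 0X-Cys against 10X-Cys. Here 6 members were higher in 0X-Cys and SRSF4 was lower, with 48% of all genes called, 23.6% higher and 24.4% lower, and 72% called among abundant genes. SRSF2 was 1.77 times its 10X-Cys level, a log2 difference of 0.82 ± 0.042 (limma adjusted p = 1.73e-14). SRSF3 was higher by 0.48 ± 0.036, SRSF7 by 0.36 ± 0.039, SRSF1 by 0.29 ± 0.035 and SRSF5 by 0.24 ± 0.036, with limma adjusted p-values of at most 3.91e-06. These are the 5 genes that fell against complete medium, and both comparisons use the same 10X-Cys libraries, so one does not support the other.

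TRA2A, called in neither comparison with complete medium, was higher in 0X-Cys than in 10X-Cys by 0.29 ± 0.042 (limma adjusted p = 2.35e-06). Its 2 values in 0X-Cys and 4 in 10X-Cys did not overlap, and the mean of complete medium, 4579, lay between them. SRSF4 was lower in 0X-Cys by a log2 difference of -0.12 ± 0.036 (limma adjusted p = 0.00816), a call lost under 8 of 19 alternatives, among them those without 0X-Cys replicate 1 and without 10X-Cys replicate 2, 3 or 4, with adjusted p up to 0.152. SRSF6, SRSF10 and SRSF11 were not called, with intervals from 0.02 to 0.17, from -0.06 to 0.10 and from -0.10 to 0.05. The median over members was 0.26, against 0.00 over all genes, and ranges were apart for 8 members, against 66% of all genes.

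Across the 10 libraries, log2 values of SRSF1, SRSF2, SRSF3, SRSF5 and SRSF7 had Pearson correlations between 0.93 and 0.99 for each pair. The correlations are descriptions over 10 libraries in 3 media, and these 5 genes were grouped because each fell in 10X-Cys, which by itself gives high values. SRSF4 correlated with SRSF2 at -0.62 and SRSF11 with SRSF2 at -0.32, and TRA2A was most like SRSF6, at 0.82. Among 14552 genes with a symbol and a mean of 100 or more, the gene most like SRSF5 was HNRNPH1 (r = 0.998), an hnRNP protein, and the one most like SRSF2 was ARHGEF39 (0.998). SRSF1 was nearest to NDUFAF8 (0.996), SRSF3 to EML4 (0.995), SRSF7 to NDUFA11 (0.995), TRA2A to PHF6 (0.988) and SRSF4 to FLI1 (0.978). SRSF10 was nearest to LDAF1 (0.964), SRSF6 to SETD9 (0.962) and SRSF11, with the flattest profile, to REV3L (0.827).

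The upstream sequence of a gene that fell and of one that was not called is shown for comparison, from RefSeq on GRCh38.p14, 5′ to 3′ on the gene's strand. The first is chr6:36594112-36594352 before SRSF3 (plus strand) and the second chr1:29181901-29182150 before SRSF4 (minus strand), both outside annotated exons. Capitals mark matches, on either strand, to CCAAT (the CCAAT box), GGGCGG (the GC box), CCGGAAG (an ETS site) and TGACGT (part of a CREB site).
SRSF3: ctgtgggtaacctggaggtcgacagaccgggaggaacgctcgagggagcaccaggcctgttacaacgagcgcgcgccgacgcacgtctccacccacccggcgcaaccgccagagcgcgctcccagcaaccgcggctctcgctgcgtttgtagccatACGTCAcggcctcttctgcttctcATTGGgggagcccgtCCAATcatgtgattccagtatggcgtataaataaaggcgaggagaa
SRSF4: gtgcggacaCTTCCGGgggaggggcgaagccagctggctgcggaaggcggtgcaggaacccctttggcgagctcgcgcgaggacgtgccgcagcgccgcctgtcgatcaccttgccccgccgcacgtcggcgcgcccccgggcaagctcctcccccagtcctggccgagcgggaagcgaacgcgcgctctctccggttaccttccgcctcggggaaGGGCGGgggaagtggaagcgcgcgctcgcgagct

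The SRSF3 stretch holds 2 CCAAT matches and 1 TGACGT match, and the SRSF4 stretch holds 1 GGGCGG and 1 CCGGAAG match. Windows from 250 bases before to 50 after the start were found for 8 members and for 35116 starts in all. Members are counted per gene and the background per window, and SRSF7 and SRSF11 have more than 1 window each. TGACGT occurred in 3 members, SRSF1, SRSF3 and SRSF5, and in 7.98% of all windows. GGGCGG occurred in 4 members, SRSF4, SRSF6, SRSF7 and SRSF11, and in 44.9% of all windows. CCAAT occurred in SRSF3 alone among members, and in 34.6% of all windows. TATAAA, the TATA box, was found in 3 members, SRSF3, SRSF7 and SRSF11 (11.5% of all windows). CCGGAAG was found in 2, SRSF4 and SRSF5 (10.3%), and GCATGCGC, the NRF1 core, in 2, SRSF7 and SRSF10 (3.05%). Each of these motifs occurred both in members that fell in 10X-Cys and in members not called there. CACGTG, an E box (7.26%), and TGACTCA, an AP-1 site (4.95%), had 0 matches among members. All were searched on both strands. A match describes letters in the window and does not show binding.

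All 10 members have an annotated transcript subject to nonsense-mediated decay, and 9 have one with a retained intron, SRSF6 being without. Among 15652 protein-coding genes tested these shares were 45.1% and 55.3%, and among the 2132 abundant ones 55.8% and 71.9%. SRSF7 has 6 annotated decay targets of 12 transcripts, and SRSF5 has 8 retained-intron transcripts of 19.

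The 4 other SR family genes did not move as one. SRSF9, with a short RS tail, had counts of 10084, 9179, 10059 and 8931 in 1X-Cys, 7520 and 7717 in 0X-Cys, and 7709, 7723, 8101 and 7949 in 10X-Cys. It fell in both altered media, by 0.33 in 0X-Cys (limma adjusted p = 0.00119) and by 0.28 in 10X-Cys (3.63e-05), the former call lost without either 0X-Cys library. SRSF9 shares 1725 exon bases with GATC on the opposite strand. SRSF12, the lowest of the family at 530 ± 15.5 in 1X-Cys, rose to 725 ± 33.7 in 0X-Cys and by a log2 difference of 0.24 in 10X-Cys (limma adjusted p = 0.00194 and 0.00445), calls lost without either 0X-Cys library in the first case and in 5 of 21 alternatives, each without 1 library of the 2 groups, in the second. SRSF8, an SRSF2-like gene, rose in 10X-Cys by 0.35 (limma adjusted p = 6.21e-05) and was at 0.27 in 0X-Cys (0.0177), where it was not called but passed under 10 of 19 alternatives, among them equal totals, quantile normalization, the replicate block, edgeR and DESeq2. TRA2B, the paralogue of TRA2A, fell in 10X-Cys by 0.24 (limma adjusted p = 0.000243), with an interval from -0.09 to 0.18 in 0X-Cys.

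SR kinases moved in both directions. Of 9 tested, 4 rose and 3 fell in 10X-Cys, where 46% of all genes were called, and 6 rose and 2 fell under equal totals. In 0X-Cys, where 15.9% of all genes were called, 1 rose and 1 fell, against 2 and 0 under quantile normalization, 0 calls in all without either 0X-Cys library or without 1X-Cys replicate 1 or 2, and 4 without 1X-Cys replicate 3. CLK1, which phosphorylates RS domains in the nucleus, rose in both media, from 1377 ± 164 in 1X-Cys to 1789 ± 100 in 10X-Cys and 1881 ± 113 in 0X-Cys. DYRK1A, a dual-specificity kinase, rose to 164% in 10X-Cys, while PRPF4B, a spliceosomal kinase, fell to 70.7% in 10X-Cys and 82.9% in 0X-Cys.

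The RNA-binding partners and the splicing machinery were called lower more often than higher in 10X-Cys. Of 27 core spliceosome genes 21 fell and 2 rose, and of 26 hnRNP genes 19 fell and 2 rose, with median log2 differences of -0.30 and -0.39, while 22.9% of all genes and 43% of abundant genes were called lower. SNRPF, an Sm ring protein, fell to 53.5% and HNRNPH2 to 57.6%, while PCBP2 rose to 143% and SF3A1 to 119%. The majority stayed lower under each of 4 other scalings, with at least 17 core and 17 hnRNP genes called lower. In 0X-Cys the core list had 11 lower and 1 higher, with SNRPF at 57.2%. The hnRNP list had 6 lower and 1 higher, where 8.51% of all genes were called lower. In either direction 12 of 27 core and 7 of 26 hnRNP genes were called, against 15.9% of all genes and 34.2% of abundant genes. The hnRNP split became 6 lower and 5 higher under quantile normalization and 5 lower and 4 higher with totals of nuclear genes. Calls in the hnRNP list numbered 3 with no filter, 12 with DESeq2, and 13 both with 1 fit of all groups and at a threshold of 0.05. Without either 0X-Cys library, calls dropped from 12 to 5 in the core list and from 7 to 0 in the hnRNP list, and without 1X-Cys replicate 2 to 8 and 3. SF3A2 rose to 117% and HNRNPUL2 to 117%, and PCBP1 fell to 80.3%.

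Of 36 other proteins with RS domains, 17 fell and 7 rose in 10X-Cys, where 46% of all genes and 74.6% of abundant genes were called and 43% of abundant genes were called lower. The split turned to 8 lower and 11 higher under equal totals. U2AF2, the large subunit of the factor that binds the polypyrimidine tract, fell to 52.1%, and DDX23 to 75.5%, while RBM39 rose to 141% and SCAF8 to 123%. In 0X-Cys 4 fell and 2 rose, near the 15.9% called over all genes, with DDX23 at 74.6% and SCAF8 at 147%. That split turned to 5 lower and 6 higher under quantile normalization and to 4 and 4 under equal totals, and 1 call was left without either 0X-Cys library.

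Of 11 import and export factors, 3 fell and 3 rose in 10X-Cys, near the 46% called over all genes, and 3 fell and 4 rose under equal totals. NXF1, the mRNA export receptor that SRSF3 and SRSF7 recruit, rose to 168% in 10X-Cys (7466 ± 276 against 4433 ± 186) and fell to 72.7% in 0X-Cys (3221 ± 3.60, n = 2). ALYREF, an export adaptor, fell to 65.6% in 10X-Cys and 79.9% in 0X-Cys. In 0X-Cys, 2 of these 11 factors fell and 0 rose, where 15.9% of all genes were called. Of 14 genes of nonsense-mediated decay and the exon junction complex, 5 fell and 2 rose in 10X-Cys, near the same 46%. EIF4A3, the anchor of the junction complex, fell to 67.8% and UPF2 to 77.6%, while CASC3 rose to 170%. In 0X-Cys, where 15.9% of all genes and 34.2% of abundant genes were called, 3 of these 14 fell, UPF2 to 75.0%, and CASC3 stood at 116%, not called. The split was 2 lower and 2 higher under quantile normalization, and the 3 calls became 1 without 0X-Cys replicate 1, 0 without 0X-Cys replicate 2, 1 without 1X-Cys replicate 2, 5 without 1X-Cys replicate 3 and 6 without 1X-Cys replicate 4. Under equal totals in 10X-Cys this list turned to 4 lower and 5 higher. Of the 13 genes named from these lists that were called in 0X-Cys against 1X-Cys, 10 lost the call without 0X-Cys replicate 1 and without 0X-Cys replicate 2, while DDX23, NXF1 and SNRPF kept it in all 19 alternatives. CLK1, PRPF4B, HNRNPUL2, UPF2 and SF3A2 also lost it without 1X-Cys replicate 1 and without 1X-Cys replicate 2, HNRNPUL2 without 1X-Cys replicate 4 and with no filter, PRPF4B and UPF2 under quantile normalization, and UPF2 under equal totals and totals of nuclear genes. Of the 18 called in 10X-Cys against 1X-Cys, PCBP1 lost the call under equal totals and SF3A2 under 8 of 21 alternatives. Each of these lists was chosen with earlier results known and is described by counts alone.

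**Figure D4:**
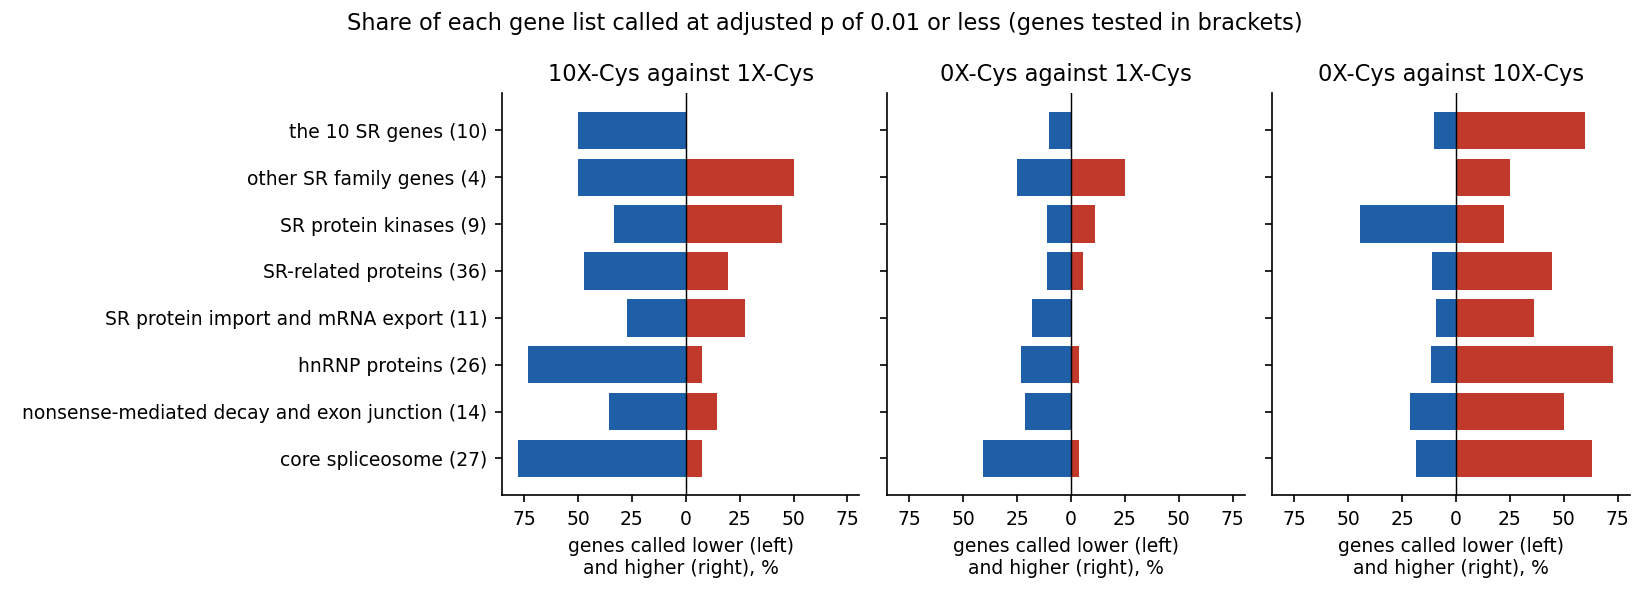
Percent of genes in each list called lower (blue, left of 0) and higher (red, right of 0) at adjusted p of 0.01 or less in the 3 comparisons, with the number of genes tested in brackets. In 10X-Cys against 1X-Cys the longest blue bars are those of the core spliceosome, 21 of 27, and the hnRNP proteins, 19 of 26.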

How the data were processed

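Poly(A) RNA of 10 HEK293T libraries was sequenced by the authors with a directional kit. Per the labels and methods, reads were aligned to GRCh38 with STAR 2.7.10b and assigned to Ensembl genes. The methods name featureCounts, with reads over several genes discarded, while the processing notes list HTSeq. The Ensembl release, strand and pair settings are not given in the sources used here. The deposited signal values are read counts divided by DESeq2 size factors, called normalized counts here. In every library 100% of values were whole multiples of 1 read (tolerance 0.1), so reads were recovered.

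Of 78894 IDs, 61463 were in GENCODE 44 and 42165 had a symbol. Genes that reached 10 in no fewer than 3 libraries were kept. Log2 of the value plus a pseudocount of 1 was fitted in limma 3.58.1 (R 4.3.3, trended eBayes, 2-sided, Benjamini-Hochberg, threshold 0.01), using only the libraries of the groups compared. Differences are on this log2 scale, and intervals are 95%. The procedure was run on simulated data with a common spread for all genes and planted changes larger than any called among the members. That run does not show how well differences of the members' size are found. Columns of per-sample values left unused numbered 0.

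The members, lists and motifs were chosen with earlier results of these data known. The genes named are the members, the other SR genes, from each list the called gene with the largest increase and decrease in 0X-Cys and 10X-Cys against 1X-Cys, and for each member the gene with the highest Pearson correlation that shares no exon bases with it. Motif, coding and RefSeq promoter matches were computed from GENCODE 44 and GRCh38.p14. Alternatives were other pseudocounts, filters, scalings, edgeR 4.0.16 and DESeq2 1.42.0 on recovered reads, 1 fit of all groups, a replicate block, a threshold of 0.05 and each library left out; scaling on nuclear totals was added after seeing the data. edgeR called 4941, 13525 and 13834 genes in 0X-Cys against 1X-Cys, 10X-Cys against 1X-Cys and 0X-Cys against 10X-Cys.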

Additional observations from a re-analysis of the deposited data

How the results depend on the processing

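In 10X-Cys against 1X-Cys, 5 members were called, and this became 8 under equal totals and under quantile normalization, through calls of SRSF4, SRSF10 and SRSF11 as higher. The cause of those calls was not tested. The range without each library in turn was 5 to 5. With totals of nuclear genes alone, SRSF4 was also called higher, at a log2 difference of 0.09. In 0X-Cys against 1X-Cys, 1 member was called, against 0 with no filter and with the replicate block, 2 with quantile normalization, with totals of nuclear genes and at a threshold of 0.05 (SRSF1 and TRA2A), and 0 to 2 with a library left out. The 4618 genes called there became 7987 at 0.05 and ranged from 978 to 6300 with a library left out: 978 without 0X-Cys replicate 2, 1198 without 0X-Cys replicate 1, 2968 without 1X-Cys replicate 1 and 2795 without 1X-Cys replicate 2. With 1 library of 0X-Cys left, that library is assumed to vary like the others. In 0X-Cys against 10X-Cys, 7 members were called, with 6 to 8 over all alternatives, and the share of called genes that were higher moved from 49.2% to 40.0% under equal totals. edgeR and DESeq2 on recovered reads called 1 and 1 members in 0X-Cys against 1X-Cys, where limma gave an unadjusted p below 0.05 for 3. No called value changed sign.

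The replicate numbers did not pair the libraries: deviations of libraries with the same number correlated between -0.116 and 0.103 over genes. The replicate block left 0 members called in 0X-Cys against 1X-Cys. The 0X-Cys group had 2 libraries, and how far this limits the precision there was not tested. Recovered reads per library in 0X-Cys (37030306 and 39454082) lay within the range of 1X-Cys.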
